A study of Mus musculus with 14 samples.

Results

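The genes described here encode the lysosomal proton pump, the cathepsins and 3 proteins of the lysosomal membrane, measured in ribosome-bound mRNA of mouse dopaminergic neurons that lacked the transferrin receptor Tfr1 and of neurons from control mice. A gene was taken when its symbol began with Atp6v or Atp6ap, was Cts followed by 1 letter, or was Lamp1, Lamp2 or Mcoln1. Where a gene had several probe sets, the one brightest on average across the arrays stood for it. The set held 43 of the 18193 genes on the array that had a probe set with a single symbol, through 87 of 34945 such probe sets. Of the 43 genes, 12 encode subunits of the V1 sector of the pump, 8 subunits of its V0 sector, 2 accessory subunits, 14 cysteine cathepsins, 4 aspartic or serine cathepsins, and 3 membrane proteins. Atp6v0c, Atp6v1g3, Atp6v1fnb and Atp6ap1l were not analysed here.

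In the RiboTag method a chosen cell type carries an epitope on a ribosomal protein, and its ribosomes are pulled out of a tissue lysate together with the mRNA on them. The lysates came from the ventral midbrain. Tfr1-null mice had the receptor gene, Tfrc, deleted in dopaminergic neurons, and control mice were heterozygous for the Tfr1 allele, so the controls too carried a changed allele. All mice carried the RiboTag allele and were F2 offspring of 129Sv and C57BL/6. The libraries were titled Tfr1-null at 3 weeks of age (n = 4), control at 3 weeks (n = 3), Tfr1-null at 10 weeks (n = 3) and control at 10 weeks (n = 4), ages that the study calls early and late in neurodegeneration. The sources used here give neither the Cre driver nor the deleted exons, nor whether each library came from a separate animal, so p-values measure the spread between these libraries, which may be technical. No input lysate was analysed, and in bulk libraries of this kind fewer cells of a type and less RNA per cell cannot be told apart.

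The vacuolar proton ATPase (V-ATPase) acidifies endosomes and lysosomes. Its cytosolic V1 sector splits ATP and drives its membrane-embedded V0 sector, which carries the protons, and cells switch the pump on and off by joining and parting the sectors. The acid it makes is what frees iron from transferrin after Tfr1 has carried it into the cell, and what the cathepsins, the main lysosomal proteases, need in order to work. Lamp1 and Lamp2 coat the inner face of the lysosomal membrane, and Mcoln1 is a channel (TRPML1) that lets calcium and iron out of the organelle. Many of these genes are known targets of the transcription factor Tfeb and its relatives, which bind the palindrome CACGTG and longer forms of it.

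That palindrome is shown in the promoters of members from different roles, because it is the sequence by which lysosomal genes are known to be controlled together. The sequences are RefSeq windows of the GRCm38.p6 build upstream of a transcription start, 5′ to 3′ on the strand of the gene, with CACGTG in capitals. Lamp1 lies on the plus strand (chr8:13159070-13159160) and Mcoln1 on the plus strand (chr8:3500418-3500509). Ctsd lies on the minus strand (chr7:142387890-142387955), as does Atp6v1a (chr16:44139355-44139420). The window of Atp6v1f, the 100 bases before its start on the plus strand (chr6:29467683-29467782), is shown because Atp6v1f is the gene whose level fell, and it holds no such match.
Lamp1: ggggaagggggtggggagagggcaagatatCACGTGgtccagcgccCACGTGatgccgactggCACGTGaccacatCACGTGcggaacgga
Mcoln1: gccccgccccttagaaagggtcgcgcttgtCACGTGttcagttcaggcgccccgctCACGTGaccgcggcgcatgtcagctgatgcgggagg
Ctsd: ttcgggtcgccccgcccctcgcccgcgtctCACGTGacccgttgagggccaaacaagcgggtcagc
Atp6v1a: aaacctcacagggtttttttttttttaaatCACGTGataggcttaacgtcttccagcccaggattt
Atp6v1f: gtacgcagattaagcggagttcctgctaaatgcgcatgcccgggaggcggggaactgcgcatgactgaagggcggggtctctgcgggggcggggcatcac

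RefSeq promoter windows, running from 250 bases before to 50 bases after a start, were found for 33 of the 43 members. CACGTG, which reads the same on both strands, was in 10 of them (30.3%): Atp6v0b, Atp6v0d1, Atp6v0e, Atp6v1a, Ctsa, Ctsd, Ctsf, Ctsl, Lamp1 and Mcoln1. Of all 27025 genes with such a window, 8.09% held it. The longer palindrome TCACGTGA, which contains CACGTG and so overlaps it, was in 6 members (18.2%), Atp6v0d1, Atp6v0e, Atp6v1a, Ctsa, Ctsd and Mcoln1, against 1.12% of all genes. Lamp1 had 4 copies of CACGTG within the 61 bases before its start, and Mcoln1 had 2, whose first bases lay 71 and 45 bases before the start. A match is a description of the letters and not of binding.

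The array values were log2 signals. Medians of the arrays ran from 6.41 to 6.47 at 3 weeks and from 7.36 to 7.43 at 10 weeks, so levels were not compared between ages. All 12 markers of dopaminergic neurons that were listed, among them Th, Slc6a3 and Pitx3, were above background (the 25th percentile of the array) in every library. So was every measured marker of astrocytes and of oligodendrocytes on the lists. The oligodendrocyte marker Mbp, for one, read 13.07, 12.99 and 13.01 in controls at 3 weeks. Presence above background therefore does not show that the libraries held mRNA of dopaminergic neurons alone. A control probe set for the 5′ part of Tfrc read 6.88 to 7.73 in Tfr1-null libraries 2 to 4 and 9.50 to 9.59 in controls at 3 weeks. At 10 weeks it read 7.79 to 9.29 in Tfr1-null libraries and 9.63 to 10.44 in control libraries 2 to 4. The library labelled Tfr1-null 3 weeks 1, at 9.67, lay with the controls of its age, and a second label of this library calls it a control. Conversely, the one labelled control 10 weeks 1, at 8.55, lay among the Tfr1-null libraries of its age. A control probe set for the middle part of Tfrc was instead higher in Tfr1-null libraries. It read 10.70 to 10.98 in Tfr1-null libraries 2 to 4 and 8.80 to 8.86 in controls at 3 weeks. At 10 weeks it read 11.39 to 11.69 in Tfr1-null libraries and 9.17 to 9.86 in control libraries 2 to 4. Tfr1-null 3 weeks 1 read 8.82 and control 10 weeks 1 read 11.43, again against their labels. These 2 libraries have doubtful labels, and results are given for the 12 other libraries and for all 14. At 3 weeks the library control 2 alone had the expression pattern of a male, with Eif2s3y at 8.50, and at 10 weeks every library had it. Atp6ap1, Atp6ap2 and Lamp2 are the 3 members on the X chromosome.

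Atp6v1f, a subunit of the pump, fell at 10 weeks in 12 libraries, and no other lysosomal gene of the set passed the test at either age. This outcome belongs to the main fit, in which both ages share 1 spread per gene. With each age fitted alone in limma, Atp6v1f had no call (adjusted p = 0.106) and Ctsz was called at 3 weeks (adjusted p = 0.0050). In 12 libraries limma called 0 of 43 members at 3 weeks (adjusted p under 0.05), where it called 1.84% of all genes, and 2 members (4.65%) had an unadjusted p under 0.05, against 10.6% of all genes. At 10 weeks it called 1 member, Atp6v1f, which was lower (2.33%), where it called 11.1% of all genes in either direction and 6.34% as lower, and 10 members (23.3%) had an unadjusted p under 0.05, against 26.4% of all genes. The median difference over the members, Tfr1-null minus control, was 0.0051 log2 units at 3 weeks and -0.0022 at 10 weeks, beside 0.0145 and -0.0137 over all genes. The median size of the difference was 0.070 at 3 weeks and 0.166 at 10 weeks, beside 0.116 and 0.195 over all genes. Upward and downward differences were balanced, with 22 members above and 21 below 0 at 3 weeks, and 21 above and 22 below at 10 weeks.

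The interval of the difference gives a range for the array signal of the chosen probe set, and is not a bound on the mRNA level itself. At 3 weeks the 95% interval lay within a 1.5-fold change in either direction for 31 of 43 members (72.1%), against 65.6% of all genes. At 10 weeks this held for 27 members (62.8%), against 53.4% of all genes. The Tfr1-null libraries lay wholly above or below the controls for 10 members at 3 weeks, 7 of them higher, and for 12 at 10 weeks, 7 of them higher. Those counts are 23.3% and 27.9% of the members, beside 25% of all genes at 3 weeks and 22.5% at 10 weeks. With all 14 libraries limma called 0 members at either age, where it called 0.0% and 1.21% of all genes. Groups did not overlap for 2 members at 3 weeks (8.16% of all genes) and 6 at 10 weeks (10.1% of all genes), and 849 genes, 1 of them a member, Ctsz, had an unadjusted p under 0.05 at 3 weeks. At 10 weeks 6 members (14.0%) had an unadjusted p under 0.05, Atp6v0a2, Atp6v1f, Ctsa, Ctsl, Lamp2 and Mcoln1, against 19.9% of all genes. All these counts include 8 members below background in every library. The plot of differences shows the whole set.

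**Figure D1:**
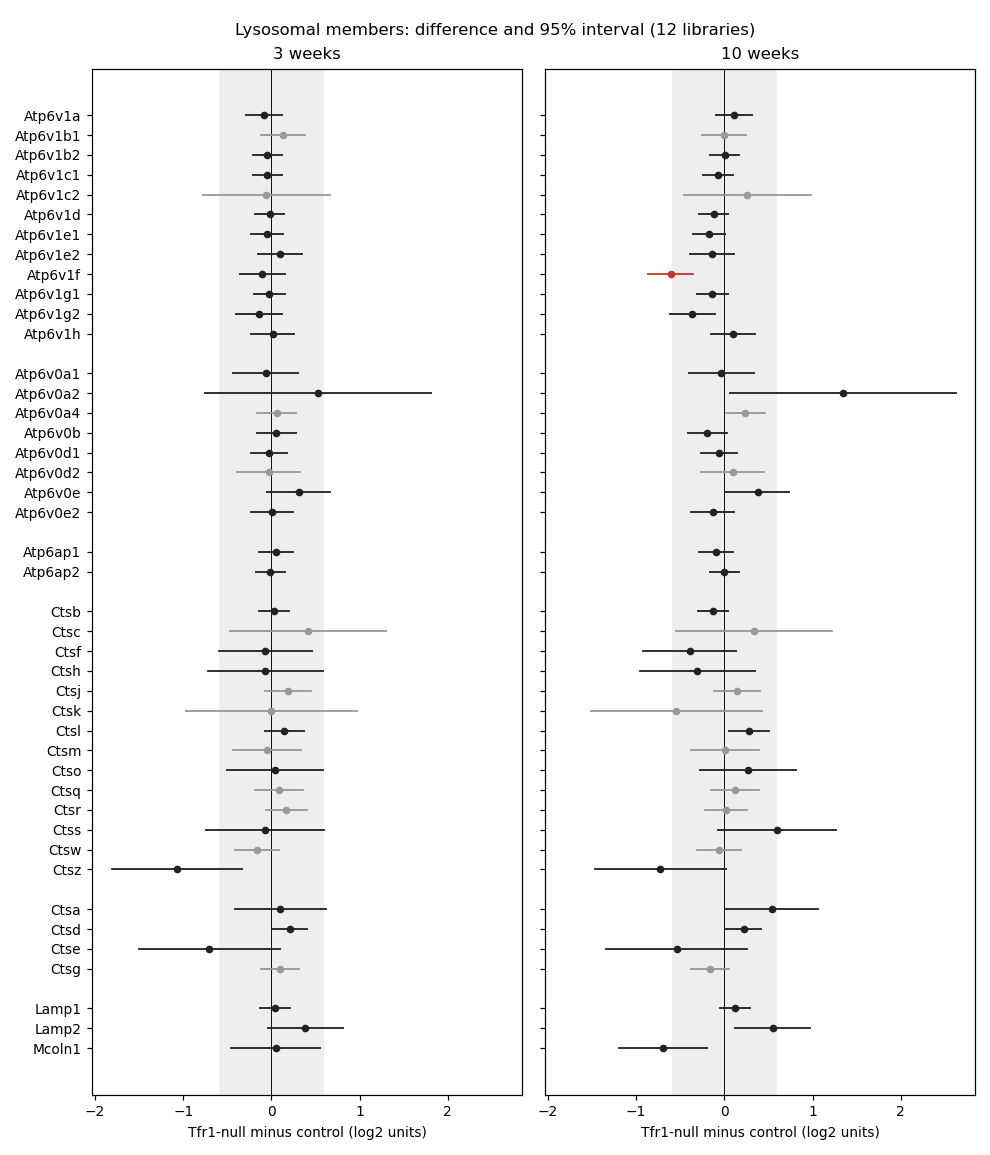
Difference in log2 signal, Tfr1-null minus control, for each of the 43 members at 3 weeks (left) and 10 weeks (right) in 12 libraries, with bars for the 95% interval from limma and members grouped by role. The shaded band marks a change within 1.5-fold, and grey members were not above background in every library. The red member is the only one called, Atp6v1f at 10 weeks. Most of the pump lies close to 0 at both ages in the brightest probe set of each gene, the only one drawn.

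Of the 12 genes of the V1 sector, the ATP-splitting part of the pump, 0 were called at 3 weeks and 1 was lower at 10 weeks. Above background in every library were 10, while Atp6v1b1, a form known mainly from kidney, passed in 6 of the 14 libraries and Atp6v1c2 in none. The differences of these 10 genes ran from -0.14 to 0.09 at 3 weeks and from -0.61 to 0.11 at 10 weeks, and an unadjusted p under 0.05 was reached by 0 at 3 weeks and by 2 at 10 weeks, Atp6v1f and Atp6v1g2. The intervals of 11 of the 12 genes lay within 1.5-fold at 3 weeks, and those of 9 at 10 weeks. At 10 weeks 5 V1 genes did not overlap between the groups, with Atp6v1a higher and Atp6v1d, Atp6v1e1, Atp6v1f and Atp6v1g1 lower in the Tfr1-null libraries. That is 41.7% of the V1 genes, beside 22.5% of all genes, and with 14 libraries it was 3 of 12, beside 10.1% of all genes.

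Atp6v1f encodes the F subunit, part of the central stalk that turns inside V1 (gene at chr6:29467783-29470509, GRCm38.p6). Its log2 signal was 12.25, 12.23 and 12.21 in the Tfr1-null libraries at 10 weeks, against 13.08, 12.68 and 12.75 in control libraries 2 to 4. The Tfr1-null libraries lay together below all of these controls, and the library labelled control 10 weeks 1, at 12.41, lay between. In 12 libraries Atp6v1f fell by 0.61 log2 units (SE 0.12, 95% interval -0.86 to -0.35), to 0.657 of the control level, with an adjusted p of 0.0087 in limma. With all 14 libraries the difference was -0.50 (SE 0.13) and the adjusted p 0.0745, so the call rested on leaving out the library labelled control 10 weeks 1. The call was also absent when the 10-week libraries were fitted alone (adjusted p = 0.106), where the difference was the same. It was absent too with the replicate number as a block (-0.66, adjusted p = 0.144), although the titles do not say that the numbers pair libraries.

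At 3 weeks Atp6v1f read 11.69, 11.94 and 11.74 in Tfr1-null libraries 2 to 4 and 11.91 in the library labelled Tfr1-null 3 weeks 1, against 11.84, 11.88 and 11.98 in controls. The groups overlapped at that age, and the difference in 12 libraries was -0.10 (SE 0.12, adjusted p = 0.909). Atp6v1f is measured by 1 probe set, so no second probe set bears on its fall.

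Atp6v1b2, which encodes the B subunit that neurons use and that helps form the ATP-binding sites, stayed within narrow bounds in its brightest probe set. It read 13.12, 13.08 and 13.09 in Tfr1-null libraries 2 to 4 at 3 weeks, against 13.12, 13.13 and 13.20 in controls. At 10 weeks Atp6v1b2 read 14.01, 13.98 and 14.00 in Tfr1-null libraries, against 13.94, 13.99 and 14.05 in control libraries 2 to 4. The groups met or overlapped at both ages, and the difference was -0.05 (95% interval -0.21 to 0.12) at 3 weeks and 0.00 (-0.16 to 0.17) at 10 weeks. Its other probe sets differed by -0.12, -0.21 and -0.22 at 3 weeks in the fit of all probe sets. Their 10-week differences were 0.01, -0.07 and -0.56, and no difference passed at either age. The last of these probe sets was above background in 7 of the 14 libraries.

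Atp6v1g2, the brain form of the G subunit of the peripheral stalk, had lower means in the Tfr1-null libraries at both ages without passing the test. At 3 weeks it read 12.41, 12.57 and 12.56 in Tfr1-null libraries 2 to 4, against 12.62, 12.70 and 12.65 in controls. By 10 weeks Atp6v1g2 stood at 13.01, 12.88 and 13.12 in Tfr1-null libraries, against 13.12, 13.48 and 13.50 in control libraries 2 to 4. The groups were apart at 3 weeks and met at 10 weeks, when the difference was -0.36 (SE 0.12, adjusted p = 0.0737). Without control 10 weeks 2 it was -0.49 and passed (adjusted p = 0.0157), and over 18 alternatives its adjusted p ran from 0.0157 to 0.320.

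Of the 8 genes of the V0 sector, which carries the protons across the membrane, 0 were called at either age. An unadjusted p under 0.05 was reached in limma by 0 at 3 weeks, against 10.6% of all genes. At 10 weeks 3 reached it (37.5%, against 26.4% of all genes), namely Atp6v0a2, Atp6v0a4 and Atp6v0e. Above background in every library were 6, while Atp6v0d2 passed in 6 libraries and Atp6v0a4 in none. Together with the V1 and accessory genes, 18 pump members were above background throughout, and the intervals of 16 at 3 weeks and 14 at 10 weeks lay within 1.5-fold. Such intervals were found for 63.3% and 48.8% of all genes above background in the 12 libraries. As many pump members, 16 and 14, differed by less than 0.2 log2 units. That share was not counted over all genes, whose median size of difference was 0.116 at 3 weeks and 0.195 at 10 weeks. The counts rest on the brightest probe set of each gene. At 10 weeks most other probe sets of the pump members that differed by less than 0.2 differed more than the brightest, and none was called. Examples are those of Atp6v0a1 (0.16, 0.33 and 0.89 against -0.04) and Atp6v1a (0.47 against 0.11). Others are 1 of Atp6v1c1 (-0.22 against -0.07) and 1 of Atp6ap2 (-0.16 against 0.00). Those that differed less were 1 of Atp6v1d (-0.06 against -0.12) and 1 of Atp6v1g1 (-0.07 against -0.13).

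Atp6v0d1, the d subunit that couples V0 to the turning stalk of V1, read 12.63, 12.70 and 12.64 in Tfr1-null libraries 2 to 4 at 3 weeks, against 12.66, 12.67 and 12.73 in controls. The 10-week values of Atp6v0d1 were 13.35, 13.52 and 13.46 in Tfr1-null libraries, against 13.37, 13.66 and 13.48 in control libraries 2 to 4. The groups overlapped at both ages, with differences of -0.03 (95% interval -0.24 to 0.18) and -0.06 (-0.27 to 0.14).

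Atp6v0e encodes the small e subunit of V0. At 3 weeks it read 8.77, 9.07 and 8.77 in Tfr1-null libraries 2 to 4, against 8.50, 8.47 and 8.71 in controls, and the library labelled Tfr1-null 3 weeks 1 read 8.83. Tfr1-null libraries 2 to 4 lay above every control at that age, yet the difference of 0.31 (SE 0.16) did not pass (adjusted p = 0.593). The doubtful library also lay above the controls. Counted as a control, it would lie above the Tfr1-null libraries at 8.77, and the groups would overlap. In 10-week mice Atp6v0e read 10.20, 9.58 and 9.98 in Tfr1-null libraries, against 9.56, 9.69 and 9.37 in control libraries 2 to 4 and 10.21 in the library labelled control 10 weeks 1. The groups overlapped there, and the difference of 0.38 (SE 0.16) had an adjusted p of 0.167. It passed without Tfr1-null 10 weeks 2 (0.55, adjusted p = 0.0396), was 0.24 without Tfr1-null 10 weeks 1, and over 18 alternatives the adjusted p ran from 0.0396 to 0.613.

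Atp6v0a2, named after its values were seen, encodes an a subunit found on Golgi and endosomes, and single libraries set its means. It read 8.68, 9.80 and 8.59 in Tfr1-null libraries 2 to 4, against 8.73, 8.34 and 8.42 in controls at 3 weeks. At 10 weeks Atp6v0a2 read 8.92, 11.64 and 9.34 in Tfr1-null libraries, against 8.48, 8.78 and 8.60 in control libraries 2 to 4. At each age 1 Tfr1-null library stood far above the rest. The 10-week difference of 1.35 (SE 0.58) did not pass (adjusted p = 0.168) and was 0.51 without Tfr1-null 10 weeks 2. The 2 other probe sets of the gene differed by 0.36 and -0.85 at 10 weeks in the fit of all probe sets. In the last of these a single control library stood apart. It was control 10 weeks 4, at 11.35, against 9.17 in control libraries 2 and 3 and 8.95 to 9.21 in Tfr1-null libraries.

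Atp6v0a4, the a subunit of acid-secreting epithelia, read 4.47, 4.24 and 4.12 in Tfr1-null libraries and 3.97, 4.08 and 4.07 in control libraries 2 to 4 at 10 weeks. All of these lay below the 25th percentile of the arrays, which was 5.45 to 5.54 at that age, and at 3 weeks it was below background in every library too, so no fold is given.

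The accessory subunits Atp6ap1, which helps the V0 sector assemble, and Atp6ap2, also known as the prorenin receptor, did not pass at either age. Atp6ap1 read 12.62, 12.57 and 12.53 in Tfr1-null libraries 2 to 4, against 12.53, 12.51 and 12.52 in controls at 3 weeks, and 13.41, 13.61 and 13.35 in Tfr1-null libraries, against 13.52, 13.61 and 13.53 in control libraries 2 to 4 at 10 weeks. Its groups were narrowly apart at 3 weeks and overlapped at 10 weeks, with differences of 0.05 and -0.10. Atp6ap2 read 13.83, 13.82 and 13.82 in Tfr1-null libraries 2 to 4, against 13.88, 13.83 and 13.80 in controls at 3 weeks, and 14.69, 14.77 and 14.71 in Tfr1-null libraries, against 14.71, 14.75 and 14.71 in control libraries 2 to 4 at 10 weeks. Its groups overlapped at both ages, and its intervals, -0.17 to 0.15 at 3 weeks and -0.16 to 0.16 at 10 weeks, were among the narrower ones of the set.

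**Figure D2:**
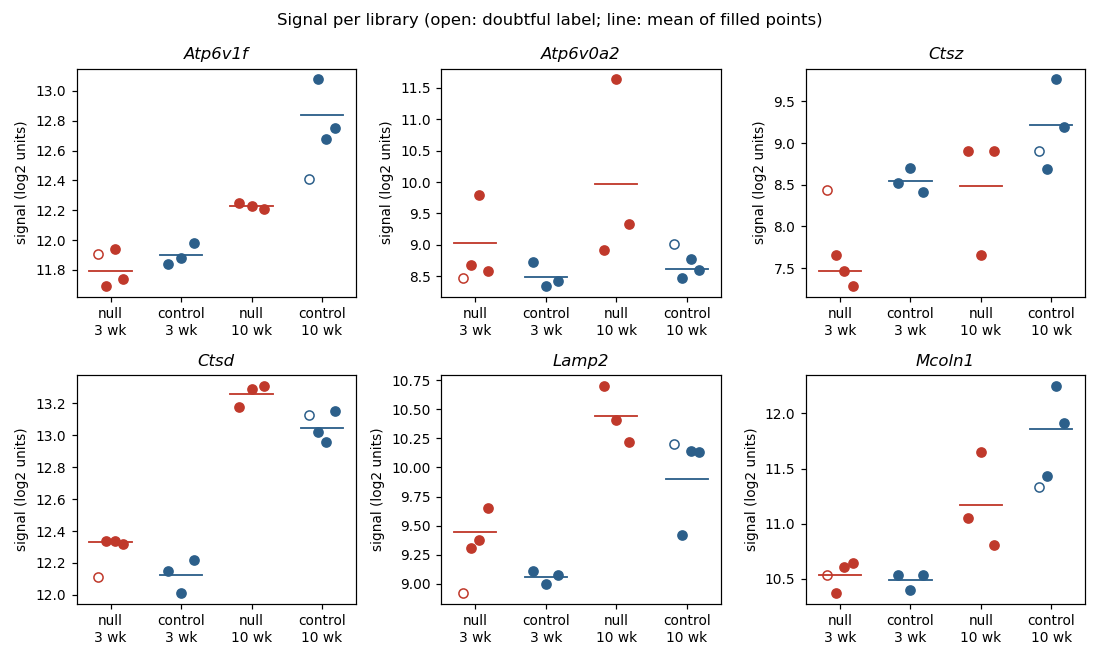
Log2 signal of 6 members in each of the 14 libraries, with Tfr1-null left of control at each age, open circles for the 2 libraries with doubtful labels and lines for the mean of the filled circles. Atp6v1f at 10 weeks shows 3 Tfr1-null libraries at 12.21 to 12.25, below control libraries 2 to 4, whereas the Tfr1-null mean of Atp6v0a2 at 10 weeks is set by 1 library at 11.64.

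Of the 14 cysteine cathepsins, 0 were called at either age in 12 libraries, and an unadjusted p under 0.05 was reached by 1 at 3 weeks (Ctsz) and 1 at 10 weeks (Ctsl). Above background in every library were Ctsb, Ctsf, Ctsh, Ctsl, Ctso, Ctss and Ctsz, whose differences ran from -1.07 to 0.15 at 3 weeks and from -0.73 to 0.59 at 10 weeks. Ctsj, Ctsm, Ctsq and Ctsr, which are placental cathepsins of rodents, and Ctsw, known from cytotoxic lymphocytes, were above background in none. Ctsc, which activates the proteases of immune cell granules, passed in 9 libraries and Ctsk, the collagen-degrading cathepsin of osteoclasts, in 2.

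Ctsz, a carboxypeptidase, showed the widest 3-week difference among these genes. It read 7.66, 7.47 and 7.28 in Tfr1-null libraries 2 to 4, against 8.52, 8.70 and 8.41 in controls, and the library labelled Tfr1-null 3 weeks 1 read 8.44. The 3 Tfr1-null libraries lay well below all controls, and the doubtful library lay among the controls. The difference in 12 libraries was -1.07 (SE 0.34, 95% interval -1.81 to -0.33) with an adjusted p of 0.199. It passed when the 3-week libraries were fitted alone (SE 0.12, adjusted p = 0.0050), when 5.05% of all genes were called. It also passed with array weights (-1.14, adjusted p = 0.0051), when 7.48% of all genes were called, and without Tfr1-null 10 weeks 2 (adjusted p = 0.0485), a library of the other age that enters through the shared spread. Over 18 alternatives the adjusted p ran from 0.0050 to 0.534, and 3 passed.

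At 10 weeks Ctsz read 8.91, 7.66 and 8.90 in Tfr1-null libraries, against 8.69, 9.77 and 9.19 in control libraries 2 to 4. The groups overlapped, and the difference was -0.73 (SE 0.34, adjusted p = 0.199). Single libraries set its size, which was -0.31 without Tfr1-null 10 weeks 2 and -0.45 without control 10 weeks 3. With all 14 libraries the 3-week difference was -0.83 and the 10-week difference -0.65, and neither passed, while array weights gave -1.02 (adjusted p = 0.0289) at 3 weeks, when 3.24% of all genes were called. All 3 probe sets of Ctsz gave negative differences at both ages in the fit of all probe sets, -1.07, -0.81 and -0.61 at 3 weeks and -0.73, -0.49 and -0.28 at 10 weeks, and 0 of these were called.

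Ctsb, a broadly expressed endopeptidase, read 13.22, 13.26 and 13.23 in Tfr1-null libraries 2 to 4, against 13.16, 13.21 and 13.25 in controls at 3 weeks. By 10 weeks Ctsb stood at 14.02, 14.07 and 14.03 in Tfr1-null libraries, against 14.19, 14.21 and 14.10 in control libraries 2 to 4. The groups overlapped at 3 weeks and were narrowly apart at 10 weeks, with differences of 0.03 (95% interval -0.14 to 0.20) and -0.13 (-0.30 to 0.04). The mean over its 5 probe sets had the opposite sign at both ages, -0.05 and 0.07.

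Ctsl, which processes many lysosomal substrates, read 12.16, 12.14 and 12.08 in Tfr1-null libraries 2 to 4, against 12.03, 12.00 and 11.91 in controls at 3 weeks. The 10-week values of Ctsl were 13.13, 12.97 and 13.12 in Tfr1-null libraries, against 12.64, 12.99 and 12.75 in control libraries 2 to 4. The groups were apart at 3 weeks and overlapped at 10 weeks. Its differences of 0.15 (adjusted p = 0.754) and 0.28 (adjusted p = 0.107) did not pass, except at 10 weeks without control 10 weeks 3 (0.38, adjusted p = 0.0354), and over 18 alternatives at 10 weeks the adjusted p ran from 0.0354 to 0.592.

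Ctss, a cathepsin made mainly by microglia and other myeloid cells and named after its values were seen, read 8.38, 8.41 and 7.96 in Tfr1-null libraries 2 to 4, against 8.47, 8.19 and 8.30 in controls at 3 weeks. In 10-week mice Ctss read 10.67, 9.36 and 10.11 in Tfr1-null libraries, against 9.37, 9.93 and 9.08 in control libraries 2 to 4. The groups overlapped at both ages. The 10-week difference of 0.59 (SE 0.30) had an adjusted p of 0.246 in 12 libraries. It was 0.94 with an adjusted p of 0.0451 without Tfr1-null 10 weeks 2, but 0.28 without Tfr1-null 10 weeks 1 and 0.09 with the replicate block, and the adjusted p over 18 alternatives ran from 0.0451 to 0.757. Markers of microglia were measured beside it. The mean of the 20 microglial markers ran from 7.54 to 7.86 in Tfr1-null libraries and from 7.31 to 7.75 in control libraries 2 to 4 at 10 weeks. At 3 weeks it ran from 6.54 to 6.75 in Tfr1-null libraries 2 to 4 and from 6.65 to 6.78 in controls. Of these markers 0 were called at either age (0 at 3 weeks and 2 at 10 weeks had an unadjusted p under 0.05), and 17 of 20 were above background in every library, all but P2ry13, Itgam and Gpr34. Their part in the levels of the cathepsins was not tested.

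The aspartic and serine cathepsins numbered 4, of which 0 were called and 1 at 3 weeks (Ctsd) and 2 at 10 weeks (Ctsa and Ctsd) had an unadjusted p under 0.05. Ctsg, a protease of neutrophil granules, was above background in no library. Ctsd, the main aspartic protease of lysosomes and an enzyme that degrades alpha-synuclein, read 12.34, 12.34 and 12.32 in Tfr1-null libraries 2 to 4, against 12.15, 12.01 and 12.22 in controls at 3 weeks. At 10 weeks Ctsd read 13.18, 13.29 and 13.31 in Tfr1-null libraries, against 13.02, 12.96 and 13.15 in control libraries 2 to 4. Tfr1-null libraries lay above every control at both ages in these 12 libraries. The library labelled Tfr1-null 3 weeks 1, at 12.11, lay among the controls, and the library labelled control 10 weeks 1 read 13.13. Differences of 0.21 (SE 0.09, adjusted p = 0.435) and 0.22 (SE 0.09, adjusted p = 0.149) did not pass, and their intervals ran from 0.01 to 0.40 and from 0.02 to 0.42.

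Ctsa, a serine carboxypeptidase that shields lysosomal beta-galactosidase and was named after its values were seen, read 10.88, 10.98 and 11.06 in Tfr1-null libraries 2 to 4, against 10.89, 10.80 and 10.93 in controls at 3 weeks. By 10 weeks Ctsa stood at 11.80, 12.84 and 11.74 in Tfr1-null libraries, against 11.50, 11.71 and 11.53 in control libraries 2 to 4. Groups overlapped at 3 weeks and were apart at 10 weeks, where Tfr1-null 2, the library in which Atp6v0a2 was also high, stood above the others. The 10-week difference of 0.54 (SE 0.23) did not pass (adjusted p = 0.171), and it was 0.19 without that library. A second, dimmer probe set of Ctsa, above background in all 14 libraries, differed by -0.43 at 3 weeks and -0.06 at 10 weeks. It was called at neither age in the fit of all probe sets. Ctse, an aspartic protease of endosomes, differed by -0.71 at 3 weeks and -0.54 at 10 weeks, and its intervals spanned 0 at both ages.

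The 3 membrane proteins gave 0 calls in limma, with an unadjusted p under 0.05 for 0 at 3 weeks and 2 at 10 weeks (Lamp2 and Mcoln1), whose differences had opposite signs. Lamp1 read 12.41, 12.44 and 12.39 in Tfr1-null libraries 2 to 4, against 12.40, 12.34 and 12.39 in controls at 3 weeks. The 10-week values of Lamp1 were 13.32, 13.33 and 13.33 in Tfr1-null libraries, against 13.12, 13.27 and 13.22 in control libraries 2 to 4. Groups overlapped at 3 weeks and were narrowly apart at 10 weeks, and the library labelled control 10 weeks 1 read 13.35, above the Tfr1-null libraries. Its differences were 0.04 (95% interval -0.13 to 0.21) and 0.12 (-0.04 to 0.29).

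Lamp2, whose product is needed for lysosomes to fuse with autophagosomes and, in one of its forms, for chaperone-mediated autophagy, was higher on average in Tfr1-null libraries at both ages. It read 9.31, 9.38 and 9.65 in Tfr1-null libraries 2 to 4, against 9.11, 9.00 and 9.08 in controls at 3 weeks, and 8.92 in the library labelled Tfr1-null 3 weeks 1. In 10-week mice Lamp2 read 10.70, 10.41 and 10.22 in Tfr1-null libraries, against 9.42, 10.14 and 10.13 in control libraries 2 to 4 and 10.20 in the library labelled control 10 weeks 1. Groups were apart at both ages in 12 libraries, with differences of 0.38 (SE 0.19, adjusted p = 0.561) and 0.55 (SE 0.19, adjusted p = 0.0967), the second of which was 0.31 without control 10 weeks 2.

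Probe sets of Lamp2 differed in the outcome of the test. A second probe set read 9.70, 9.65 and 10.10 in Tfr1-null libraries 2 to 4, against 8.88, 9.20 and 8.95 in controls at 3 weeks, and another read 8.91, 8.95 and 8.83 in the same Tfr1-null libraries, against 8.16, 8.10 and 8.13 in controls. Each of these Tfr1-null libraries lay above every control in both, and the library labelled Tfr1-null 3 weeks 1, at 9.26 and 8.35, lay between. In limma fitted to all probe sets these rose by 0.81 (SE 0.16, adjusted p = 0.0390) and 0.77 (SE 0.12, adjusted p = 0.0127) at 3 weeks, when 1.08% of all probe sets were called. Each of the 12 libraries was left out in turn, a setting added after the values were seen. The first of the pair kept its call in 3 of 12 such fits (differences from 0.67 to 0.90, adjusted p from 0.0230 to 0.181). The other kept it in 7 of 12 (0.74 to 0.80, adjusted p from 0.0069 to 0.0717). Leaving out a 10-week library cannot change a 3-week difference, only the shared spread. The first of the pair kept its call only in fits of that kind. Among fits without a 3-week library, the other kept its call only without Tfr1-null 3 weeks 4 (adjusted p = 0.0447). Without control 3 weeks 2, the library of male pattern, the differences were 0.90 and 0.75 and neither was called (adjusted p = 0.0666 and 0.0717). Neither was called without control 3 weeks 1 (adjusted p = 0.181 and 0.0578) or control 3 weeks 3 (0.163 and 0.0641) either. The same held without Tfr1-null 3 weeks 2 (0.103 and 0.0676) or Tfr1-null 3 weeks 3 (0.0706 and 0.0679). The mean over the 4 probe sets, an alternative in which 2.05% of all genes were called, was also called at 3 weeks (0.62, SE 0.13, adjusted p = 0.0392). With all 14 libraries the same probe sets differed by 0.67 and 0.63 and were not called. At 10 weeks, when 9.33% of all probe sets were called, these 2 and the remaining probe set differed by 0.29, 0.40 and 0.33, and 0 were called.

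Mcoln1 read 10.37, 10.61 and 10.64 in Tfr1-null libraries 2 to 4, against 10.54, 10.40 and 10.54 in controls at 3 weeks. At 10 weeks Mcoln1 read 11.05, 11.65 and 10.81 in Tfr1-null libraries, against 11.43, 12.25 and 11.91 in control libraries 2 to 4 and 11.33 in the library labelled control 10 weeks 1. The groups overlapped at both ages. Its 10-week difference was -0.70 (SE 0.23, adjusted p = 0.0771), and it passed without Tfr1-null 10 weeks 2 (-0.93, adjusted p = 0.0192) and without control 10 weeks 2 (-0.91, adjusted p = 0.0261). Over 18 alternatives the adjusted p ran from 0.0192 to 0.479. The 2 other probe sets of Mcoln1 differed by -0.12 and -0.09 at 10 weeks, closer to 0 than the first.

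**Figure D3:**
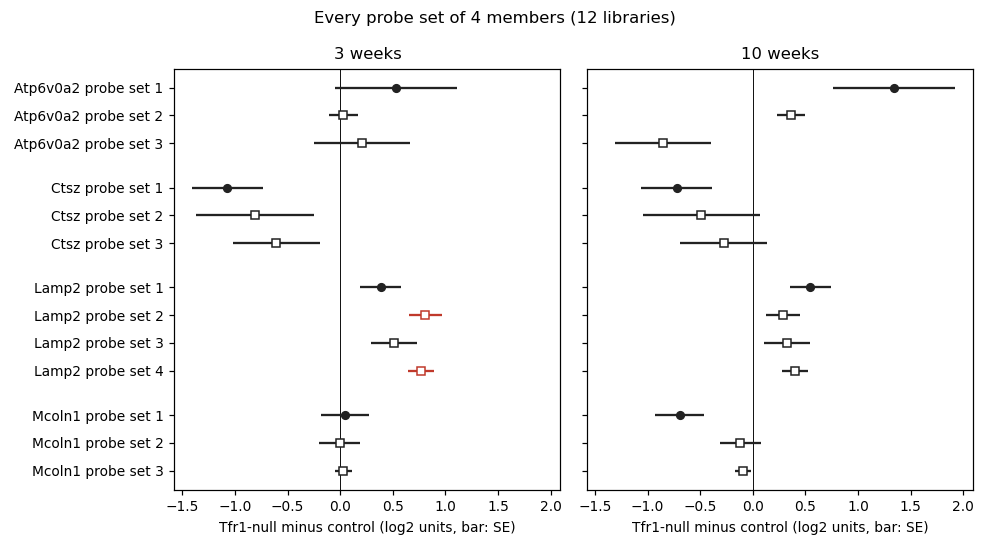
Difference in log2 signal, Tfr1-null minus control, for every probe set of Atp6v0a2, Ctsz, Lamp2 and Mcoln1 at 3 weeks (left) and 10 weeks (right) in 12 libraries, with bars for the SE, filled circles for the probe set with the highest mean and red for those called in the fit of all probe sets. The probe sets of Ctsz lie below 0 and those of Lamp2 above 0 at both ages, whereas those of Atp6v0a2 at 10 weeks lie on both sides of 0. In the negative one of Atp6v0a2 at 10 weeks, control library 4, at 11.35, stood far above the rest.

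The difference between the genotype effects at 10 and 3 weeks was tested in the same fits. In 12 libraries 0 members were called, where 0.286% of all genes were, and 2 members had an unadjusted p under 0.05. These were Atp6v1f (-0.50, SE 0.16, adjusted p = 0.240) and Mcoln1 (-0.74, SE 0.32, adjusted p = 0.384). With 14 libraries 0 members and 0.0% of all genes were called. The fall of Atp6v1f at 10 weeks is therefore not shown to differ from its 3-week difference.

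The 10 members with CACGTG in the promoter window included 0 that were called at either age in 12 libraries, where 1.84% of all genes were called at 3 weeks and 11.1% at 10 weeks, so a count of 0 among 10 says little about them. Their differences ran from -0.09 to 0.31 at 3 weeks, 7 above and 3 below 0, and from -0.70 to 0.54 at 10 weeks, 6 above and 4 below 0. Lamp1, with 4 copies, and Mcoln1, with 2, thus differed by 0.12 and -0.70 at 10 weeks. The mRNA of Tfeb itself did not pass, with a 3-week difference of 0.47 (SE 0.19, adjusted p = 0.386) and a 10-week difference of -0.11 (SE 0.19, adjusted p = 0.775). Nor did that of its relative Tfe3, with differences of 0.21 (adjusted p = 0.771) and 0.33 (adjusted p = 0.186).

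The other lysosomal genes of the lists changed in both directions at 10 weeks. Of 87 measured genes for hydrolases, other membrane proteins, sorting factors, inhibitors and regulators, 17 were called at 10 weeks in 12 libraries, 8 higher and 9 lower (19.5%, beside 11.1% of all genes). At 3 weeks 2 were called (2.30%, beside 1.84% of all genes). With 14 libraries only Lamp5 was called, lower at 10 weeks. The difference between this share and that of the members was not tested, and these lists, like the members, were chosen with earlier results known.

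Among the 32 hydrolases and their activators, 3 rose and 4 fell at 10 weeks. Arsb, which trims sulfate from glycosaminoglycans, fell by 1.04 (SE 0.14, adjusted p = 0.0011), and Lipa, the acid lipase, fell by 0.62 (adjusted p = 0.0143). Galns, another sulfatase, rose by 0.64 (adjusted p = 0.0132) and Arsa, which degrades sulfatide, by 0.45 (adjusted p = 0.0168). At 3 weeks Aga, an amidase of glycoprotein breakdown, fell by 1.49 (SE 0.23, adjusted p = 0.0064). Arsb and Galns, both sulfatases of glycosaminoglycan breakdown, thus moved in opposite directions at 10 weeks.

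Among the 22 other membrane proteins and transporters, 4 rose and 1 fell at 10 weeks. Slc11a2 (DMT1), the transporter that moves freed iron out of endosomes, was higher at both ages, by 1.37 log2 units at 3 weeks (SE 0.14) with an adjusted p of 6.0e-04, and by 0.99 at 10 weeks (SE 0.14) with an adjusted p of 0.0021. Npc1, which exports cholesterol, rose by 0.52 (adjusted p = 0.0213) and Tmem192 by 0.62 (adjusted p = 0.0361), while Lamp5, a neuronal relative of the Lamp proteins, fell by 2.50 (SE 0.41, adjusted p = 0.0040).

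Of 10 sorting factors and cathepsin inhibitors, Cstb, which inhibits cysteine cathepsins, rose at 10 weeks by 0.58 (SE 0.08, adjusted p = 0.0019). Cst6, of the same inhibitor family, fell by 1.12 (SE 0.32, adjusted p = 0.0457). Of 23 regulators and assembly factors 0 rose and 3 fell. Lamtor4, of the complex that anchors mTORC1 to the lysosome, fell by 1.26 (SE 0.19, adjusted p = 0.0025). Rogdi, a member of the complex that rejoins V1 with V0, fell by 0.70 (SE 0.14, adjusted p = 0.0089), and Ncoa7, a protein that binds the pump, fell by 0.43 (adjusted p = 0.0413).

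**Figure D4:**
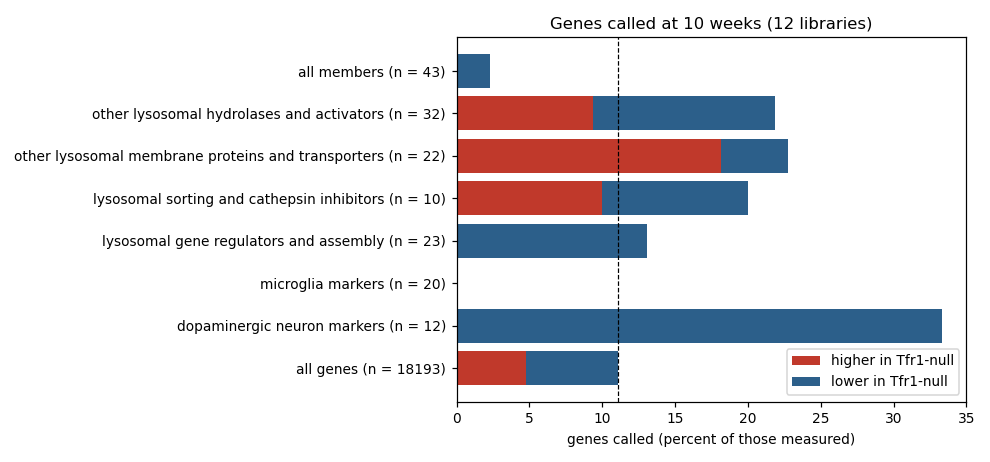
Share of measured genes called at 10 weeks in 12 libraries, in percent, for the 43 members, the 4 lists of other lysosomal genes, 2 lists of cell markers and all 18193 genes, split into genes higher (red) and lower (blue) in Tfr1-null libraries. The dashed line is the 11.1% of all genes, and 1 of the 43 members was called.

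Of 12 dopaminergic markers 4 were called lower at 10 weeks in 12 libraries, where 11.1% of all genes were called, namely Foxa1 (-0.86), Drd2 (-0.85), Ddc (-0.32) and Aldh1a1 (-0.28). The mean of the 12 ran from 12.28 to 12.56 in Tfr1-null libraries and from 12.72 to 13.00 in control libraries 2 to 4. With 14 libraries 0 were called (7 had an unadjusted p under 0.05), and the control mean, from 12.37 to 13.00, overlapped that of the Tfr1-null libraries. At 3 weeks 0 were called (2 had an unadjusted p under 0.05), and the mean ran from 11.77 to 11.85 in Tfr1-null libraries 2 to 4 and from 11.94 to 11.95 in controls. Markers of astrocytes, oligodendrocytes, and endothelial cells and pericytes gave 0 calls at either age, with an unadjusted p under 0.05 for 1 astrocyte marker at each age and 2 vessel markers at 10 weeks. The mean of the astrocyte markers at 10 weeks ran from 10.16 to 10.74 in Tfr1-null libraries and from 10.05 to 10.56 in control libraries 2 to 4. That of the oligodendrocyte markers ran from 10.53 to 11.26 in Tfr1-null libraries and from 10.56 to 11.48 in these controls, and that of the vessel markers from 7.02 to 7.27 in Tfr1-null libraries and from 6.97 to 7.23 in these controls. Positive 10-week differences in 12 libraries were found for 15 of 20 microglial, 8 of 10 astrocyte, 8 of 9 oligodendrocyte and 7 of 10 vessel markers. Their medians were 0.17, 0.22, 0.07 and 0.18, while 10 of 12 dopaminergic markers had negative differences. With 14 libraries the positive ones numbered 11, 7, 4 and 7. At 3 weeks all 10 vessel markers had negative differences (median -0.26) and their mean ran from 6.34 to 6.52 in Tfr1-null libraries 2 to 4 and from 6.52 to 6.95 in controls. Negative differences were also found at 3 weeks for 8 of 9 oligodendrocyte markers, whose mean ran from 10.24 to 10.57 in Tfr1-null libraries 2 to 4 and from 10.51 to 10.60 in controls, and for 4 of 10 astrocyte markers. The part of these values in the fall of Atp6v1f and in the 3-week differences of Ctsz and Lamp2 was not tested.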

How the data were processed

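Ribosome-bound mRNA of dopaminergic neurons was measured in 14 libraries. Per the labels' protocols, 50 ng of RNA was amplified with the NuGEN Ovation V2 system for Affymetrix arrays, and per the submitters' processing notes the deposited log2 signals came from RMA in Partek 6.5. The values were taken as deposited, and the arrays of each age were evidently scaled apart from those of the other.

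Groups came from sample titles and genotype labels, and 0 columns lacked a sample. Of 45101 probe sets, 34958 had 1 symbol, 932 several and 9211 none, and control probe sets (64) were left out. Positions and promoters were matched by symbol to RefSeq, with 43 members matched for position.

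All genes were fitted in limma (lmFit, eBayes), with a mean for each of 4 groups, 1 shared spread per gene and Benjamini-Hochberg adjustment over all genes. Pairs of libraries, of the same or different genotype, correlated at 0.989 to 0.996 at 3 weeks and at 0.968 to 0.986 at 10 weeks. The 10-week libraries were thus less alike, and the shared spread does not allow for a spread that differs between ages. The fit to 14 libraries left 10 residual degrees of freedom beside 2.72 from the prior, and that to 12 libraries 8 beside 2.80. Their number limits the precision. The script was tested on simulated data. No age contrast within a genotype was tested.

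The members, gene lists and most alternatives were chosen with earlier results of these data known, and so was the 12-library fit. Members named with library values were those called, and in each role the one with the highest mean and the one with the smallest p at each age, 15 in all, and 3 more were chosen after their values were seen. From other lists up to 4 called genes per age were named by smallest p, along with Tfeb and Tfe3, which were chosen after their values were seen. Replicate numbers were not treated as pairs in the main fits, since the titles do not say that they pair samples. The computation used R 4.3.3, limma 3.58.1, Python 3.11.15, pandas 2.3.3, numpy 2.4.6 and matplotlib 3.10.9.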

Additional observations from a re-analysis of the deposited data

Results flagged for a closer look

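Of 36 values tested (named members in each group of 4 libraries), 3 had a library that stood apart from the other 3 by Dixon's test, where chance gives about 1 in 20. Atp6v0a2 read 9.80 in Tfr1-null 3 weeks 3, against 8.47 to 8.68 in the other libraries of its group. Ctsd read 12.11 in the library labelled Tfr1-null 3 weeks 1, against 12.32 to 12.34, and this is the library whose label is doubtful. Lamp2 read 9.42 in control 10 weeks 2, against 10.13 to 10.20.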

How the results depend on the processing

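Over all alternatives, 1378 differences of named members kept their direction and side of the threshold, 13 gained a call, 2 lost one and 7 changed sign. A value without a call whose sign changed by less than its SE counted as kept. Many of the kept values could hardly have changed. Leaving out a library of the other age cannot move a difference, and only Atp6v1f at 10 weeks in 12 libraries had a call to lose. The number kept is therefore a weak measure of how firm the results are. Signs changed with the mean over probe sets, for Ctsa at 3 weeks (-0.158 in 14 and -0.164 in 12 libraries), Atp6v1b2 at 10 weeks (-0.062 in 14 and -0.153 in 12), and Ctsb (0.018 at 10 weeks in 14, -0.045 at 3 weeks and 0.065 at 10 weeks in 12). The replicate block, by number within age, left 0 members called at 10 weeks in 12 libraries (Atp6v1f -0.66, adjusted p = 0.144). With it the genes called were 0 at 3 weeks and 20 at 10 weeks in 12 libraries, 0 at 10 weeks in 14, and 0 for the difference between ages in 12. Same-numbered libraries, the doubtful ones included, correlated at -0.034 to 0.088 in their deviations from the group mean. Differently numbered libraries were not compared, so these values cannot settle whether the numbers pair libraries. Libraries of one age fitted alone gave, in 12 libraries, 1 member (Ctsz) and 918 genes at 3 weeks and 0 members and 244 genes at 10 weeks, and 0 genes at 10 weeks in 14. Array weights gave 1 member (Ctsz) at 3 weeks in both fits, with 1360 genes in 12 libraries and 589 in 14, and at 10 weeks 801 genes in 12 and 0 in 14. The mean over probe sets gave 1 member (Lamp2) at 3 weeks in 12 libraries and 86 genes at 10 weeks in 14. Testing all probe sets, added after seeing the data, gave 1 member (Lamp2) at 3 weeks and 3260 probe sets at 10 weeks in 12 libraries. Leaving out the 2 doubtful libraries turned 0 called genes into 335 at 3 weeks, 220 into 2015 at 10 weeks with 1 member, and 0 into 52 for the difference between ages. Leaving out 1 library at a time gave, in 14 libraries, 0 to 1 members at 10 weeks (1 without control 1), and 0 to 55 genes at 3 weeks, 5 to 1924 at 10 weeks and 0 to 48 for the difference between ages. In 12 libraries it gave 0 to 1 members at 3 weeks and 1 to 4 at 10 weeks (4 without Tfr1-null 2, 3 without control 2, 2 without control 3), and 205 to 412 genes at 3 weeks and 9 to 109 for the difference. The causes were not tested. Genes with an unadjusted p under 0.05 numbered 849 at 3 weeks and 1360 for the difference between ages in 14 libraries, where limma called 0. The 8 members below background in every library limit what can be said of them.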
